A study of Mus musculus with 44 samples.

Results

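The genes described are the cytochrome P450 genes of families 1 to 4 in the mouse. They were taken by name, as every protein-coding RefSeq gene on mm10 whose symbol is Cyp, a family digit from 1 to 4, a subfamily letter or letters and a number. The rule found 75 of 21887 protein-coding genes, with 3 in family 1, 48 in family 2, 7 in family 3 and 17 in family 4. The naming rule uses no measured value. Another 24 protein-coding genes with a Cyp symbol lie outside these families.

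Cytochrome P450 enzymes are haem monooxygenases of the endoplasmic reticulum, and the liver is the main organ for most of those in families 1 to 3, which oxidise drugs, toxicants, steroids and fatty acids. Hepatocytes express many of them by position along the lobule, with Cyp2e1 and Cyp1a2 near the central vein and Cyp2f2 near the portal tract. Nuclear receptors such as CAR and PXR, and the aryl hydrocarbon receptor, switch several of them on in response to chemicals. H3K4me3 marks promoters in use, H3K27ac marks active promoters and enhancers, H3K4me1 is broadest at enhancers, and H3K27me3 is the Polycomb mark of silenced genes.

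The study followed mouse hepatocytes that take on a biliary phenotype under injury, with antibody-directed tagmentation by a protein A/G-Tn5 fusion, read as 1 peak list per library. Each of the 4 marks had 11 libraries: 2 of Hep, 2 of early, 2 of intermediate, 3 of late and 2 of BEC. All groups came from Rosa26-LSL-Cas9-EGFP mice, labelled wild type, that had been given 5e11 genome copies each of the virus AAV8-TBG-Cre. Its TBG promoter drives Cre in hepatocytes, so that EGFP marks cells of hepatocyte descent. Hep were hepatocytes of mice on normal diet, isolated on a Percoll gradient. The other groups were sorted from mice fed 0.1% DDC, a porphyrinogenic agent that injures bile ducts, for 8 to 9 weeks: early cells were EGFP+ CD24-, intermediate cells EGFP+ CD24+ EPCAM-, late cells EGFP+ CD24+ EPCAM+, and BEC (biliary epithelial cells) EGFP- EPCAM+. Formalin was labelled at the same range of concentration in every group. In every comparison with Hep, the stage, the diet and the method of isolation cannot be told apart. The sources used here do not give age, sex or strain, or whether libraries of a group came from separate animals, so p-values measure only the spread between these libraries, which may be technical.

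For each gene and library, the bases of a 5000 bp window around the 5′ end of the gene model that lay inside peaks were counted, and this covered length is the value given below in bp. A value of 0 means that the list had no peak there. Read depth is unknown, because the lists hold peaks only. H3K4me3 lists held 19378 to 33795 peaks, H3K27ac 23535 to 51843, H3K4me1 12807 to 78027 and H3K27me3 2361 to 16628. Peaks were short in some lists: the median H3K4me3 peak was 129 bp in intermediate 1 and 89 bp in late 1, against 248 to 486 bp in the other 9 libraries. In a population of cells, fewer cells with a mark and less of the mark per cell cannot be told apart.

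Of 6 hepatocyte markers, 4 or 5 had an H3K4me3 peak in every Hep library and also in every BEC library. Their H3K27ac was at 4 or 5 of the 6 in Hep, 0 or 1 in early, 4 in intermediate, 2 to 5 in late, and 2 or 3 in BEC. By limma, 3 of 5 tested (Alb, Serpina1c and Ttr) had less H3K27ac in early cells than in Hep. Of the 5, 2 (Alb and Ttr) had less in late cells, with no H3K4me3 call in either comparison. The marker Hnf4a went the other way in further comparisons. It was called higher in H3K27ac in intermediate and in late cells than in early cells. Hnf4a was also called higher in BEC than in Hep, in both marks. In that comparison Serpina1c was lower in both marks and Alb in H3K27ac. The remaining marker, Asgr1, is listed to start 5215 bp from the end of its gene model, and there its H3K4me3 averaged 1803 bp (Hep), 1513.5 bp (early), 224.5 bp (intermediate), 47.3 bp (late) and 0 bp (BEC). Of 6 biliary markers, 1 or 2 had one in Hep, 2 or 3 in early, 5 or 6 in intermediate, and 6 in every late and BEC library. Macrophage markers had no H3K4me3 peak in any library, and their H3K27ac reached 1 of 6 markers outside Hep. Endothelial markers had H3K4me3 in intermediate (0 or 1 of 6) and late (0 to 2) libraries only. Stellate and fibroblast markers were at 0 in Hep and early libraries and at 1 or 2 of 6 in intermediate, late and BEC libraries. Lymphocyte markers had 0 or 1 of 6 at every stage. The part of such cells, and of the markers' own H3K27ac differences, in the values below was not tested.

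The promoters that carry the findings are printed here from RefSeq (GRCm38.p6), from 250 bases before to 50 after the listed start, 5′ to 3′ on the strand of the gene. Capitals mark matches on either strand to 3 motifs. They are the TATA box, spelled TATAAA, a C/EBP site, spelled TTGCNNAA, and the core bound by the aryl hydrocarbon receptor with Arnt, spelled GCGTG. The first 5 promoters, of which Cyp2e1 and Cyp1a2 are pericentral genes, had less H3K4me3 in late cells than in Hep. They lie at chr7:140763569-140763868 (plus strand) for Cyp2e1, chr7:27119705-27120004 (plus) for Cyp2f2, chr9:57683606-57683905 (minus) for Cyp1a2, chr5:146009569-146009868 (minus) for Cyp3a25 and chr15:82794196-82794495 (minus) for Cyp2d26.
Cyp2e1: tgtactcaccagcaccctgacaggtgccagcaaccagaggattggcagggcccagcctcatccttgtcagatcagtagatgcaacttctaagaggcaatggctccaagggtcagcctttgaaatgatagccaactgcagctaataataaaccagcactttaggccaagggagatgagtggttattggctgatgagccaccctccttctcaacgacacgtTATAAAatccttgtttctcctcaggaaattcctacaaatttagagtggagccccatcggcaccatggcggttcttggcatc
Cyp2f2: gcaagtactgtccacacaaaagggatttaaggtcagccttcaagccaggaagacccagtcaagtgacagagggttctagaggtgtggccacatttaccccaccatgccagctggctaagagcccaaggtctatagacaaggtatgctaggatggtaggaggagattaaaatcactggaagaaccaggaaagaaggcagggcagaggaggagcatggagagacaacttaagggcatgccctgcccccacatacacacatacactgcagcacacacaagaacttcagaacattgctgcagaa
Cyp1a2: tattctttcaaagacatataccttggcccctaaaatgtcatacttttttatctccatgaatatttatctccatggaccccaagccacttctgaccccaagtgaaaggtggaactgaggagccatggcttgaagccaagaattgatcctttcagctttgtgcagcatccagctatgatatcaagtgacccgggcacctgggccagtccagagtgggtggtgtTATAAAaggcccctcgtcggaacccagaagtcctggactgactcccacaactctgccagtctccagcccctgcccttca
Cyp3a25: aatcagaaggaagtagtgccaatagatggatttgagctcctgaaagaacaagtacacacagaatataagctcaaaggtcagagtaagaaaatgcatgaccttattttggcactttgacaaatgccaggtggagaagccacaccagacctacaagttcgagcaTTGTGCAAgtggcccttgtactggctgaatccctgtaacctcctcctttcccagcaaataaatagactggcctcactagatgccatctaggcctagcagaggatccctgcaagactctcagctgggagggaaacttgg
Cyp2d26: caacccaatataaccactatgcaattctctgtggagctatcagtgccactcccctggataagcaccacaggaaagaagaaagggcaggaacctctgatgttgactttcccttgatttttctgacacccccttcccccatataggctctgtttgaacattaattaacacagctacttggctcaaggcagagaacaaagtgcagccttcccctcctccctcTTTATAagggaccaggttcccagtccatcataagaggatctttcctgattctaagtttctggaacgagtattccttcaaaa

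The next pair had H3K4me3 in every library (Cyp2r1, chr7:114562923-114563222, minus) or in no Hep or early library and in both BEC libraries (Cyp2s1, chr7:25816476-25816775, minus). They are shown because they hold many more CpG dinucleotides, 22 in Cyp2r1 and 17 in Cyp2s1, against 0 to 4 in the first 5.
Cyp2r1: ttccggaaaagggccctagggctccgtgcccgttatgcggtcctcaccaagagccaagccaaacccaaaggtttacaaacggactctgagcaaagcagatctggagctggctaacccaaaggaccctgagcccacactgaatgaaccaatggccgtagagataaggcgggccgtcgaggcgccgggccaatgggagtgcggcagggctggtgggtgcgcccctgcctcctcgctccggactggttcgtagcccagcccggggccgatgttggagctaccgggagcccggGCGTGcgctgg
Cyp2s1: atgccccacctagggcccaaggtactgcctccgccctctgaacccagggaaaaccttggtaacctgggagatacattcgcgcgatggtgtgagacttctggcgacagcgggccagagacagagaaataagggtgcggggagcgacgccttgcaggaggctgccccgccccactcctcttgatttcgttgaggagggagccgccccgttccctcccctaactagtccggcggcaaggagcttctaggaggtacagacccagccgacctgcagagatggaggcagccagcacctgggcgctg

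The last pair shows how alike neighbouring copies can be: the aligned promoters of Cyp2a4 (chr7:26306942-26307241, plus) and Cyp2a5 (chr7:26835089-26835388, plus) were 97.7% identical.
Cyp2a4: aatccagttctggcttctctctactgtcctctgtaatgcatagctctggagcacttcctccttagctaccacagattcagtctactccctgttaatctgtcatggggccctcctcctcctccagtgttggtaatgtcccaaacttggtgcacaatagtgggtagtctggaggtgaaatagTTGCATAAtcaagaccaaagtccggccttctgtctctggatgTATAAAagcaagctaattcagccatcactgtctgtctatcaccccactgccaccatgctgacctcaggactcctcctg
Cyp2a5: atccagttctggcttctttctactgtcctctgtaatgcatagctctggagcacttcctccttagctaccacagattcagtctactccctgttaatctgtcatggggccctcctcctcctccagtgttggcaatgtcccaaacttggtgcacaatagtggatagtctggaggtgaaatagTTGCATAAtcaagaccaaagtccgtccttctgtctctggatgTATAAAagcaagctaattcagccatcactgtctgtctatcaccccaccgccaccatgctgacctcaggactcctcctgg

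A promoter sequence was available for 63 of the 75 genes. TATAAA stood in 41.3% of the 63, against 13.3% of 17492 protein-coding promoters of the same length. TTGCNNAA stood in 23.8%, against 10.1% of all. An HNF4 site, spelled CAAAGTCCA and searched on both strands, stood in 12.7% of the 63 and in 0.417% of all. GCGTG stood in 22.2%, against 38.4% of all. These matches describe the letters of the windows and are not evidence of binding.

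CpG content differed between the H3K4me3 patterns described below. The CpG observed-over-expected ratio had a median of 0.105 in the 19 sequenced promoters of the 23 genes lower in late cells than in Hep, with 0 to 4 CpGs each. It was 0.494 in the 4 sequenced promoters of the 7 genes marked in every library, 0.174 in 25 of the 29 genes with no H3K4me3 peak, and 0.576 over all promoters. The groups overlapped in range, since the lowest ratio among the 4 was 0.13 and the highest among the 19 was 0.38.

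Across the P450 genes, promoter H3K4me3 was most frequent in Hep. A peak was present at 35 and 36 of the 75 promoters in the 2 Hep libraries, 26 and 28 in early, 15 and 21 in intermediate, 11, 20 and 11 in late, and 12 and 12 in BEC. The mean share was 47.3% ± 0.943 in Hep, 36.0% ± 1.89 in early, 24.0% ± 5.66 in intermediate, 18.7% ± 6.93 in late and 16.0% ± 0 in BEC (SD). Over all protein-coding promoters the share was 50.0% in Hep, 50.5% in early, 56.0% in intermediate, 55.4% in late and 54.6% in BEC, so the P450 share was near the genome-wide share in Hep and below it in every other stage. The Hep and late libraries did not overlap in the P450 count, and late 2 stood apart from the other late libraries.

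H3K27ac was at 34 and 34 P450 promoters in Hep, 26 and 29 in early, 27 and 25 in intermediate, 17, 21 and 13 in late, and 19 and 15 in BEC. The mean shares were 45.3%, 36.7%, 34.7%, 22.7% and 22.7% in that order of stages, beside 47.6%, 35.3%, 48.1%, 47.9% and 46.1% over all promoters. In early cells both shares were lower than in Hep and the P450 share was close to the genome-wide one, while in late and BEC cells the P450 share was below the genome-wide one.

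**Figure D1:**
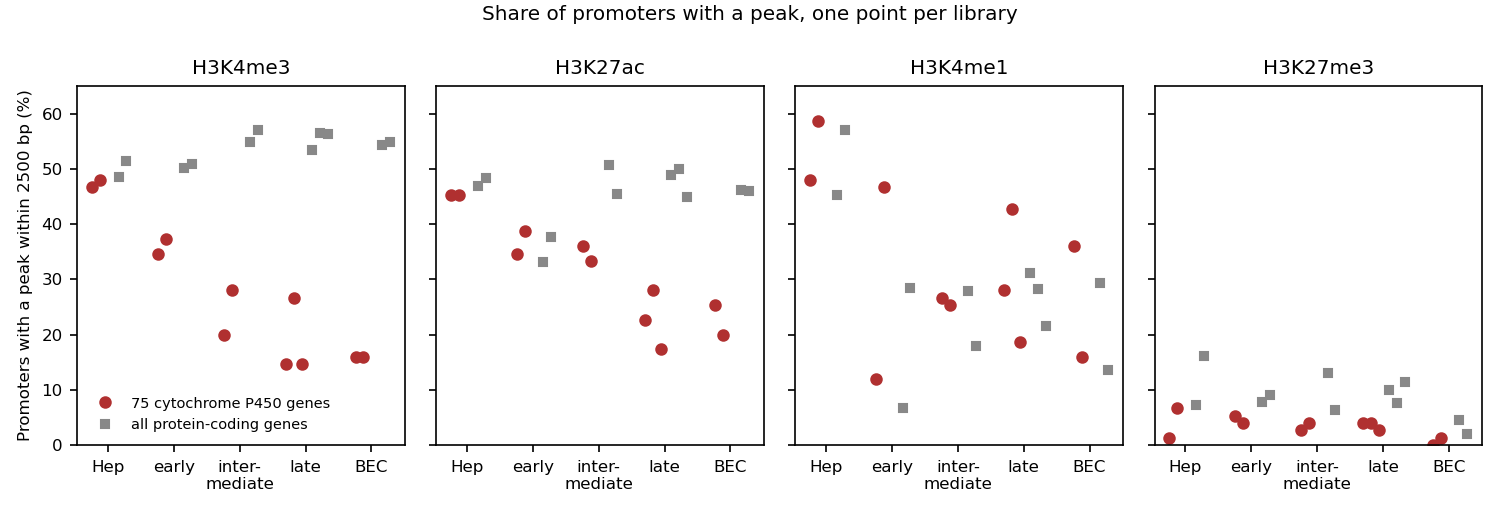
Percent of the 75 P450 promoters (circles, 1 per library) with a peak of each mark, by stage, beside the percent of all protein-coding promoters (squares). For H3K4me3 the 3 late libraries lie at 14.7, 26.7 and 14.7%, all below the Hep libraries at 46.7 and 48.0%.

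Differences between stages were tested with limma on log2(covered bp + 100), in 1 fit per mark over all promoters with a peak in 2 or more of 11 libraries (13140 for H3K4me3 and 12289 for H3K27ac). Benjamini-Hochberg adjusted p-values under 0.05 were called. Among the P450 genes 40 could be tested for H3K4me3 and 44 for H3K27ac, and the rest had too few peaks. A promoter marked only in Hep enters this test through those peaks, so the counts describe the genes and are read beside the share of all promoters called. The size of a difference against a stage listed at 0 depends on the 100 bp added. The share of all promoters at which the libraries of different stages do not overlap was not counted. A lack of overlap given below therefore describes the single gene only.

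In late cells, 23 P450 promoters had less H3K4me3 than in Hep and 1 had more. Over all promoters 3.08% were called lower and 3.21% higher. Of the 23, Cyp2c23, Cyp2c54, Cyp4a10 and Cyp4a14 had no listed strand and were placed at the gene end with more H3K4me3, the mark tested. The median difference of the 40 tested P450 promoters was -2.40, against -0.66 over all promoters tested (log2). The 23 were Cyp1a2 of family 1, 15 genes of family 2 (Cyp2a5, Cyp2a12, Cyp2c23, Cyp2c29, Cyp2c38, Cyp2c50, Cyp2c54, Cyp2c68, Cyp2c70, Cyp2d9, Cyp2d10, Cyp2d26, Cyp2d40, Cyp2e1 and Cyp2f2), Cyp3a11, Cyp3a25 and Cyp3a59 of family 3, and Cyp4a10, Cyp4a14, Cyp4a32 and Cyp4f15 of family 4. The one higher promoter was that of Cyp4f16. The count rested on both Hep libraries: 11 promoters were lower without Hep 1, 9 without Hep 2 and 17 without late 3. The Cyp4f16 call was lost in each of these and without late 2, and 2 promoters were higher without late 1. A promoter marked in the Hep libraries alone, as that of Cyp2f2, cannot be tested when either is left out. Without the short-peak libraries 19 were lower.

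For H3K27ac, 18 promoters were lower in late cells than in Hep and 1, Cyp2d34, was higher. Of the hepatocyte markers 2 of 5 tested were also lower in this mark. This mark was lower at 19.2% and higher at 4.31% of all promoters, and the median was -1.32 over the 44 P450 promoters and -0.81 over all. The H3K27ac calls depended on the Hep libraries: 2 lower promoters were left without Hep 1 and 1 without Hep 2, with the Cyp2d34 call lost in both. Calls in either direction numbered 12 with peaks resized to 500 bp or with quantile normalization. Both marks were lower at 12 genes, which is 52.2% of the 23 and 66.7% of the 18.

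**Figure D2:**
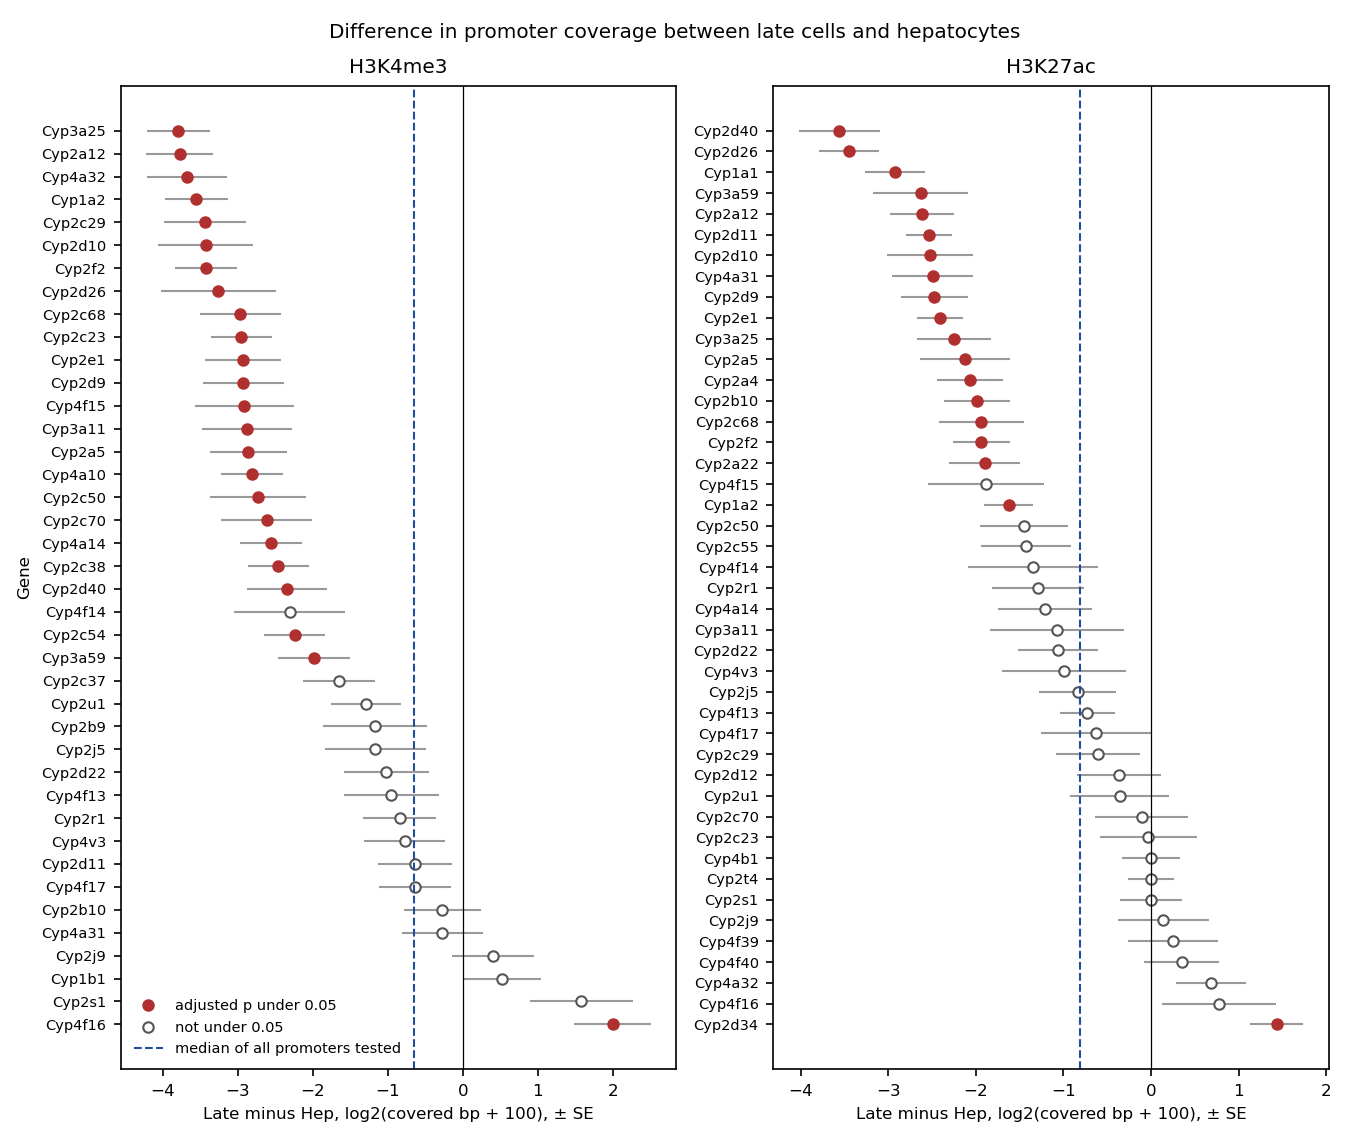
Late minus Hep difference (log2 of covered bp + 100, ± SE) in H3K4me3 and in H3K27ac for each P450 promoter tested, with called promoters filled and the median of all promoters dashed. Most called promoters lie below 0, with Cyp4f16 and Cyp2d34 above it.

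The genes of the pericentral hepatocyte, 9 named, included the enzymes that oxidise ethanol and small toxicants (Cyp2e1) and caffeine and arylamines (Cyp1a2). Of 8 tested for H3K4me3, 7 were lower in late cells than in Hep (median -2.87), and of 7 tested for H3K27ac, 4 were lower (median -1.63). Over all promoters in that comparison, 3.08% were lower in H3K4me3 and 19.2% in H3K27ac. Across the list the covered H3K4me3 length was 5158 to 6526 bp in Hep libraries, 1399 to 4284 bp in early, 0 to 478 bp in intermediate, 0 to 303 bp in late and 0 bp in BEC.

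Cyp2e1 showed the marks parting in early cells. Its H3K4me3 covered 727 and 601 bp in Hep, 625 and 1060 bp in early, 0 and 217 bp in intermediate, and 0 bp in all late and BEC libraries. Its H3K27ac covered 0 bp in the 9 libraries outside Hep, against 371 and 497 bp in Hep. The early libraries thus overlapped the Hep libraries in H3K4me3 and lay below them in H3K27ac. The early minus Hep difference was 0.27 ± 0.55 for H3K4me3 (SE, limma adjusted p = 1) and -2.41 ± 0.29 for H3K27ac (adjusted p = 0.00244). Late minus early for H3K4me3 was -3.20 ± 0.50 (adjusted p = 0.00417), a call lost without early 2 and with every peak resized to 500 bp. The H3K27ac promoter, marked in Hep alone, could not be tested without Hep 1 or Hep 2. Among 23 genes with both marks in both Hep libraries, Cyp2e1 was the one that had H3K4me3 in both early libraries and H3K27ac in none, while 11 kept both marks in both. These counts were not made over all promoters. The parting was not particular to Cyp2e1, since 24% of all promoters had less H3K27ac in early cells than in Hep and 0.304% less H3K4me3. The markers Alb, Serpina1c and Ttr also had less H3K27ac in early cells without an H3K4me3 call.

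Cyp1a2 carried H3K4me3 over 875 and 1309 bp in Hep and 291 and 220 bp in early, and none in any later library. Its H3K27ac covered 156 and 272 bp in Hep, 0 and 6 bp in early, and 0 bp after. The Hep and early libraries did not overlap in either mark. Late minus Hep was -3.55 ± 0.42 for H3K4me3 (limma adjusted p = 2.00e-04), and early minus Hep was -1.58 ± 0.30 for H3K27ac (adjusted p = 0.00869), the second call being lost without either Hep library, with peaks resized to 500 bp, at equal numbers of peaks per library and with quantile normalization.

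Cyp2a5, a coumarin hydroxylase, had H3K4me3 over 376 and 1002 bp in Hep, 0 and 186 bp in early and 0 bp in the 7 other libraries. Cyp2c37, which was tested and not called, covered 0 and 186 bp in early, against 190 and 239 bp in Hep.

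Cyp2f2, the periportal member, which activates naphthalene, had neither mark outside Hep. H3K4me3 covered 0 bp in the 9 libraries outside Hep, against 816 and 1156 bp in Hep, and H3K27ac 0 bp in the 9, against 175 and 433 bp in Hep. Early minus Hep was -3.42 ± 0.45 for H3K4me3 (limma adjusted p = 0.00425) and -1.94 ± 0.35 for H3K27ac (adjusted p = 0.00739). The H3K4me3 call was lost without either early library, and neither mark could be tested without either Hep library. It was the one gene of the 23 with both marks in Hep that had neither in both early libraries, a count not made genome-wide. H3K4me1 was absent from its promoter in both early libraries and present in some libraries of the other stages. It covered 516 and 543 bp in Hep, 0 and 0 bp in early, 0 and 372 bp in intermediate, 0, 381 and 63 bp in late and 198 and 117 bp in BEC.

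**Figure D3:**
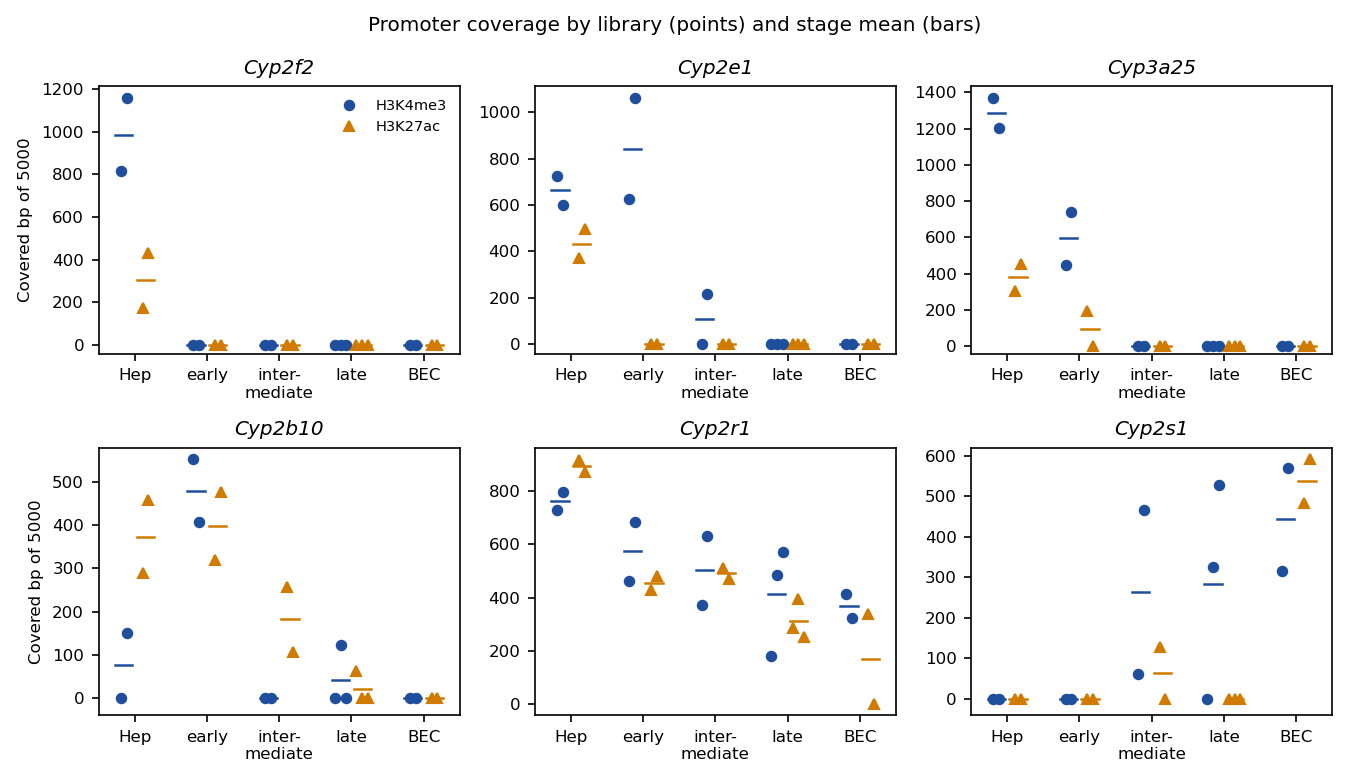
Covered length (bp of the 5000 bp window) of H3K4me3 and H3K27ac at named P450 promoters, with 1 point per library by stage and bars at the stage means. Cyp2e1 keeps H3K4me3 and has no H3K27ac in early cells, Cyp2f2 has neither, and Cyp2s1 has both in BEC.

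Early cells, which share EGFP with late cells and lack CD24, differed from Hep at fewer P450 promoters. H3K4me3 was lower at 6 (Cyp2f2, Cyp2c23, Cyp4a10, Cyp4a14, Cyp2c38 and Cyp2c54) and higher at none, where 0.304% of all promoters were lower and 0.312% higher. The median was -0.65 over the P450 promoters and -0.06 over all. All 6 had H3K4me3 peaks in the 2 Hep libraries alone, so they entered the test through Hep, and 4 of them (Cyp2c23, Cyp2c54, Cyp4a10 and Cyp4a14) were placed by this mark, so the count is a description. None of the 6 calls was left without Hep 1, without Hep 2, without early 1 or without early 2. H3K27ac was lower at 6 (Cyp2d40, Cyp2e1, Cyp2f2, Cyp1a2, Cyp3a25 and Cyp2d26) and higher at none, where 24% of all promoters were lower and 0.806% higher, and where 3 of 5 hepatocyte markers were lower. Without Hep 1 the H3K27ac count was 1, without Hep 2 it was 0, and without early 2 it was 10. It was 2 with peaks resized to 500 bp or with quantile normalization, and 3 with 10 bp added in place of 100. One gene, Cyp2f2, was on both lists.

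Of 32 genes with H3K4me3 in both Hep libraries, 20 had it in every early library and 6 in none. It was in every library at 11 of the 32 in intermediate, 7 in late and 7 in BEC cells, and in none at 15, 17 and 23. Of 31 genes with H3K27ac in both Hep libraries, 19 had it in every early library, 19 in every intermediate, 8 in every late and 7 in every BEC library. H3K27ac thus stayed at more of its Hep promoters than H3K4me3 did in intermediate cells, a comparison of counts that was not tested. The counts were not made over all promoters, so they are not shown to be particular to the P450 genes. For H3K4me3, intermediate 1 was a list of short peaks (median 129 bp) with 15 P450 promoters marked, against 21 in intermediate 2.

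**Figure D4:**
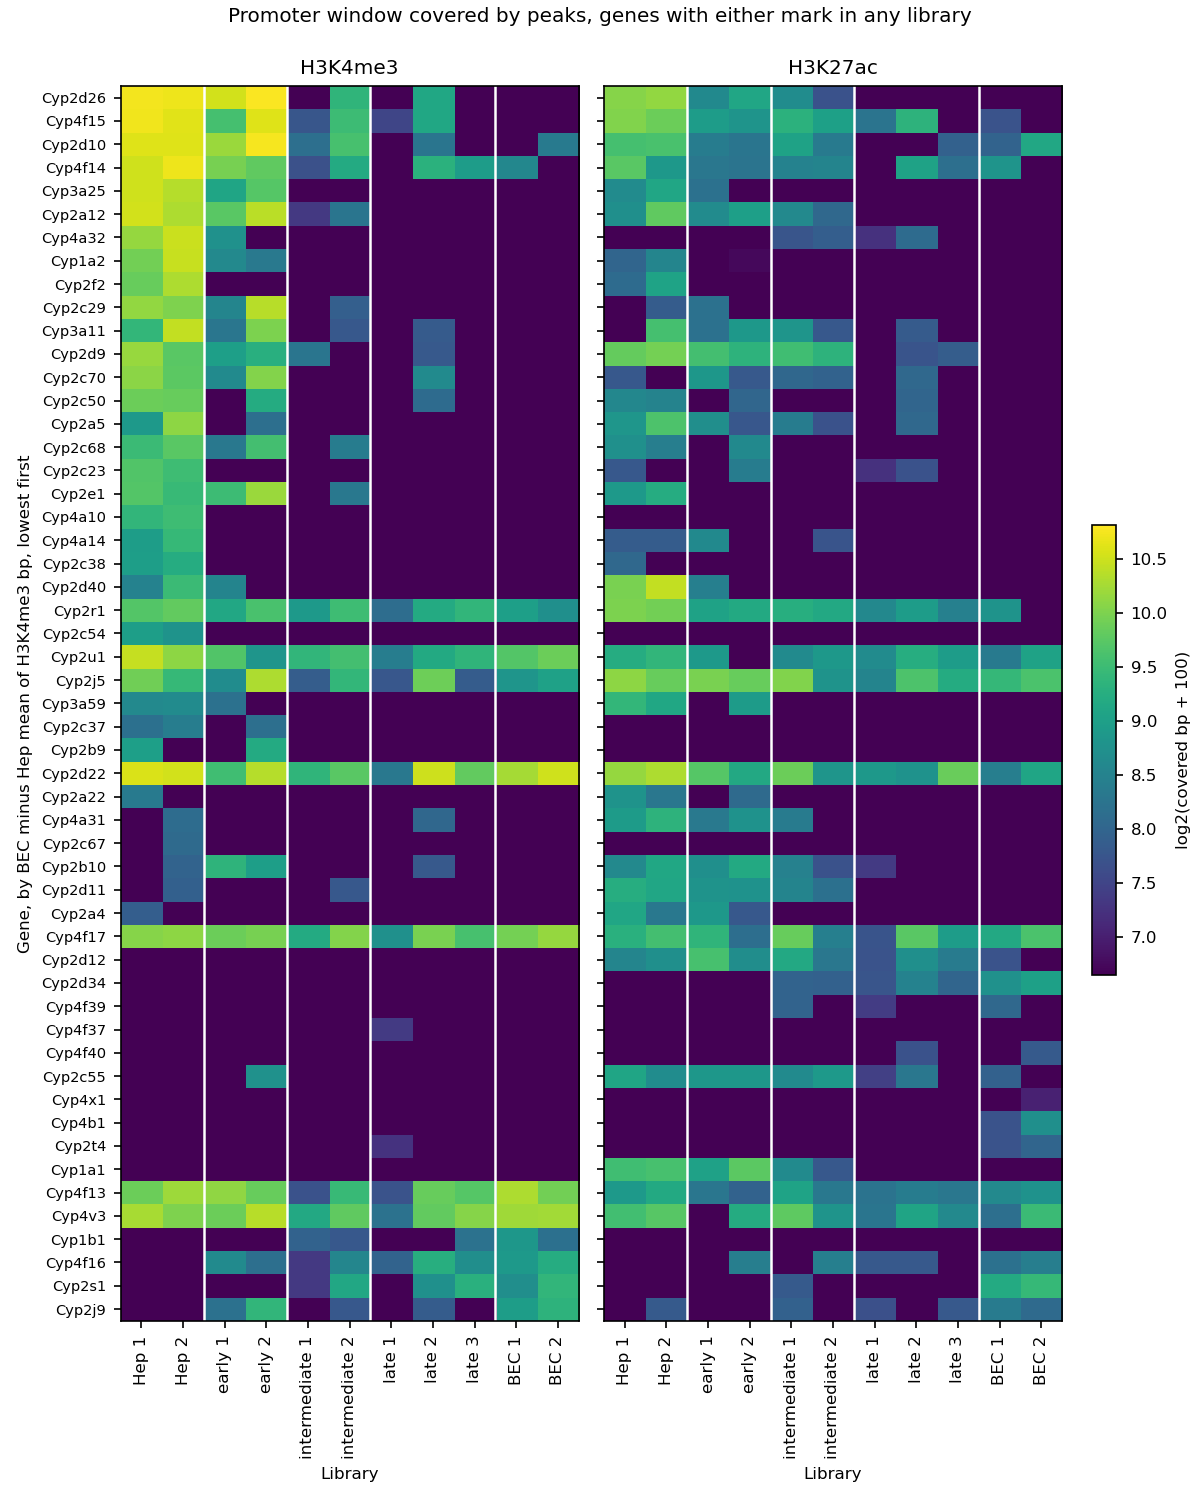
Covered length of H3K4me3 and H3K27ac (shaded as log2 of covered bp + 100) at each P450 promoter with a peak of either mark, in rows ordered by the BEC minus Hep difference in mean H3K4me3, across the 11 libraries of each mark, in columns from Hep to BEC. Many rows are filled in Hep and early columns and empty in late and BEC columns, and a few are filled throughout.

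Intermediate cells had less H3K4me3 than early cells at 1 P450 promoter, Cyp3a25, and more at none, with 0.183% of all promoters lower and 0.0913% higher. This call was lost without either early or either intermediate library or late 3, and the count was 5 without late 1 and 3 without late 2, BEC 1 or BEC 2. It was 10 with quantile normalization, 8 at equal numbers of peaks, 6 without the short-peak libraries, 3 with 10 bp added in place of 100 and 2 with peaks resized to 500 bp. H3K27ac was called at no P450 promoter in that comparison by limma (4 at an unadjusted p under 0.05, 0.277% of all promoters lower and 4.22% higher). Without early 2 there were 4 calls, 3 lower and 1 higher, and without late 1 or late 2 there was 1. There were 1 to 4 under quantile normalization, equal numbers of peaks, resized peaks, 10 bp added, placement by H3K4me3 or without the short-peak libraries. Late and intermediate cells differed at no P450 promoter in either mark by limma, with 2 for H3K4me3 and 8 for H3K27ac at an unadjusted p under 0.05. Resized peaks or 10 bp added gave 1 call for H3K4me3 and 4 for H3K27ac there. Over all promoters that comparison called 0% in either direction for H3K4me3, and 0.00814% lower and 0% higher for H3K27ac.

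Late cells had less H3K4me3 than early cells at 10 P450 promoters and more at none: Cyp1a2, Cyp2a12, Cyp2b10, Cyp2c29, Cyp2c68, Cyp2d9, Cyp2d10, Cyp2d26, Cyp2e1 and Cyp3a25. Of all promoters 1.45% were lower and 1.43% higher, and the median was -0.84 over the P450 promoters and -0.53 over all. Both groups came from DDC-fed mice, so this comparison does not carry the diet difference. The calls numbered 4 without early 1, 0 without early 2 and 3 without late 3, and 5 with peaks resized to 500 bp and 6 with 10 bp added. H3K27ac was lower at 8 (Cyp1a1, Cyp2a4, Cyp2a12, Cyp2b10, Cyp2d9, Cyp2d11, Cyp2d26 and Cyp4a31) and higher at Cyp2d34, with 1.07% of all promoters lower and 5.07% higher. The median was -0.75 over the P450 promoters and 0.22 over all, and 1 call was left without early 1 and 3 with a window of 1000 bp. The Cyp2d34 call was lost without Hep 1, Hep 2, early 1, early 2, late 2 or late 3, and at equal numbers of peaks. The Cyp1a1 call was lost at the listed start of that gene, described below. Cyp2a12, Cyp2b10, Cyp2d9 and Cyp2d26 were lower in both marks.

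Genes induced through CAR and PXR made up a list of 13, of which 6 were tested for each mark. H3K4me3 was lower in late cells than in Hep at 4 (Cyp2c29, Cyp3a11, Cyp3a25 and Cyp3a59), with a median of -2.43 over those tested. H3K27ac was lower at 3 (Cyp2b10, Cyp3a25 and Cyp3a59), with a median of -1.71. Beside these, 3.08% of all promoters were lower in H3K4me3 and 19.2% in H3K27ac. Cyp3a25 H3K4me3 covered 1367 and 1203 bp in Hep, 450 and 742 bp in early, and 0 bp in the 7 other libraries. Cyp3a11, the main steroid and drug hydroxylase of its subfamily in mouse liver, covered 580 and 1284 bp in Hep, 211 and 918 bp in early, 0 and 122 bp in intermediate, 0, 129 and 0 bp in late, and 0 bp in BEC. Both were lower in late cells than in Hep, by -3.79 ± 0.42 for Cyp3a25 (limma adjusted p = 1.35e-04) and -2.88 ± 0.60 for Cyp3a11 (adjusted p = 0.00853), which was not called without Hep 2, with peaks resized to 500 bp or with 10 bp added.

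Cyp2b10, the usual reporter gene of CAR activity in the mouse, had its highest H3K4me3 in early cells. It covered 0 and 150 bp in Hep, 553 and 408 bp in early, 0 bp in both intermediate libraries, 0, 123 and 0 bp in late and 0 bp in BEC. The early libraries lay above every other library. Late minus early was -2.14 ± 0.51 (limma adjusted p = 0.0315), a call lost without early 1, early 2 or late 3, without the short-peak libraries, with peaks resized to 500 bp and with 10 bp added, while early minus Hep was not called. Its H3K27ac ran at 289 and 459 bp in Hep, 320 and 478 bp in early, 258 and 106 bp in intermediate, 63, 0 and 0 bp in late, and 0 bp in BEC. The gene for CAR itself, Nr1i3, had H3K4me3 over 1411.5 ± 131 bp in Hep and 1279.5 ± 9.19 bp in early (SD, n = 2 each), and no peak in the 7 other libraries (late minus Hep limma adjusted p = 1.35e-04).

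Cyp2a12, a steroid hydroxylase, had H3K4me3 over 1385 and 1162 bp in Hep, 755 and 1235 bp in early, 61 and 207 bp in intermediate and 0 bp in late and BEC. H3K27ac there covered 323 and 793 bp in Hep, 303 and 412 bp in early, 292 and 167 bp in intermediate and 0 bp in late and BEC. Both marks were absent in every late library and present in every intermediate one.

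The Cyp2d genes, 8 in a tandem array on chromosome 15, were mixed. H3K4me3 was lower in late cells than in Hep at 4 of 6 tested (Cyp2d9, Cyp2d10, Cyp2d26 and Cyp2d40), and H3K27ac at 5 of 8, with Cyp2d34 higher. Of all promoters, 3.08% were lower in H3K4me3, and in H3K27ac 19.2% were lower and 4.31% higher. Cyp2d26 H3K4me3 covered 1617 and 1582 bp in Hep, 1380 and 1668 bp in early, 0 and 564 bp in intermediate, 0, 461 and 0 bp in late and 0 bp in BEC. Its late minus Hep difference was -3.26 ± 0.76 (limma adjusted p = 0.0183), a call lost without either Hep library, late 1 or late 3, with peaks resized to 500 bp, with 10 bp added and with quantile normalization. Cyp2d22, in the same array, kept H3K4me3 in every library: 1430 and 1382 bp in Hep, 641 and 1209 bp in early, 565 and 759 bp in intermediate, 217, 1341 and 797 bp in late and 1119 and 1353 bp in BEC. Cyp2d34 had no listed strand and was placed at the gene end with more H3K27ac, so this mark chose the window, and the end may not be its promoter. It had no H3K4me3 peak in the window, and its H3K27ac was 0 bp in Hep and early, 152 and 145 bp in intermediate, 114, 260 and 157 bp in late and 332 and 415 bp in BEC. Its late minus Hep difference was 1.44 ± 0.30 (limma adjusted p = 0.0138), without overlap of the groups, and the call was lost without either Hep library and at equal numbers of peaks.

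Among fatty acid omega-hydroxylases, 12 named (Cyp4a30b lies outside the naming rule), H3K4me3 was tested at 10. It was lower in late cells than in Hep at Cyp4a10, Cyp4a14, Cyp4a32 and Cyp4f15 and higher at Cyp4f16, with a median of -1.63. H3K27ac was lower at 1 of 9, Cyp4a31, a share not above the 19.2% of all promoters lower in that mark. For H3K4me3, 3.08% of all promoters were lower and 3.21% higher. Cyp4a10 and Cyp4a14, targets of the fatty acid receptor PPARα, had H3K4me3 in Hep alone: 568 and 636 bp for Cyp4a10, and 400 and 594 bp for Cyp4a14. Early minus Hep was -2.81 ± 0.45 for Cyp4a10 (limma adjusted p = 0.00876) and -2.56 ± 0.45 for Cyp4a14 (adjusted p = 0.0142), and both calls were lost without either early library and could not be tested without either Hep library.

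The Cyp4f genes were mixed. Cyp4f13 and Cyp4f14 lie outside the array of 6 that runs from Cyp4f39 to Cyp4f15. Cyp4f15 covered 1588 and 1478 bp in Hep, 665 and 1464 bp in early, 116 and 622 bp in intermediate, 83, 459 and 0 bp in late and 0 bp in BEC. Its late minus Hep difference was -2.91 ± 0.66 (limma adjusted p = 0.0157), a call lost without either Hep library, late 1 or late 3, without the short-peak libraries, with peaks resized to 500 bp, with 10 bp added and with quantile normalization. Cyp4f13 had H3K4me3 in all libraries, at 1167 and 871 bp in BEC, against 843 and 1080 bp in Hep. Cyp4f14, a leukotriene B4 hydroxylase, covered 1360 and 1582 bp in Hep, 893 and 792 bp in early, 104 and 485 bp in intermediate, 0, 537 and 396 bp in late and 280 and 0 bp in BEC, and was called lower in BEC than in Hep (-3.01 ± 0.81, limma adjusted p = 0.02002, lost without BEC 2, with peaks resized to 500 bp and with 10 bp added) and not in late cells. Cyp4f16 was at 0 bp in Hep, 299 and 186 bp in early, 61 and 275 bp in intermediate, 150, 509 and 317 bp in late, and 378 and 501 bp in BEC. All 9 libraries outside Hep had a peak there. Late minus Hep was 1.996 ± 0.509 (limma adjusted p = 0.0281), a call lost at equal numbers of peaks as well as in the cases given above.

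Cyp4v3, whose human counterpart CYP4V2 is mutated in a crystalline retinal dystrophy, kept H3K4me3 in every library, at 196, 802 and 967 bp in late, against 1136 and 928 bp in Hep. Of the epoxygenases of arachidonic acid, 9 named and 7 in the annotation used, 3 were tested for H3K4me3. Cyp2c23 was lower in late cells than in Hep, at 0 bp in all libraries outside Hep against 719 and 632 bp in Hep. Cyp2j5 had H3K4me3 and H3K27ac in all libraries, with H3K4me3 at 864 and 592 bp in Hep, 307 and 1165 bp in early, 135 and 580 bp in intermediate, 120, 852 and 131 bp in late and 353 and 425 bp in BEC. The intermediate and BEC values lay below both Hep values, and the early and late values overlapped them.

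The genes marked in all 11 libraries were few: Cyp2d22, Cyp2j5, Cyp2r1, Cyp2u1, Cyp4f13, Cyp4f17 and Cyp4v3 for H3K4me3 and Cyp2d22, Cyp2j5, Cyp4f13 and Cyp4f17 for H3K27ac at the 5′ ends used. Cyp2r1, a vitamin D 25-hydroxylase, had H3K4me3 over 727 and 797 bp in Hep, 463 and 684 bp in early, 373 and 631 bp in intermediate, 182, 485 and 570 bp in late and 414 and 324 bp in BEC. H3K4me3 peaks were shorter in the late lists as a whole (medians 89, 271 and 248 bp, against 486 and 406 bp in Hep). Every late value of Cyp2r1 lay below both Hep values. Its late minus Hep difference of -0.84 ± 0.48 lay near the median over all promoters given above and was not called (limma adjusted p = 0.26). Its H3K27ac was called lower in BEC (339 and 0 bp) than in Hep (916 and 871 bp), by -2.25 ± 0.57 (adjusted p = 0.0228), a call lost without either Hep library or BEC 2, with peaks resized to 500 bp, with 10 bp added and with quantile normalization. Cyp2u1, a broadly expressed fatty acid hydroxylase, had H3K4me3 at 240, 481 and 566 bp in late, against 1295 and 1006 bp in Hep. That difference was not called either (limma adjusted p = 0.128).

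Of 12 genes known mainly outside hepatocytes or broadly, 4 were tested for H3K4me3 and 5 for H3K27ac, and none was called between late cells and Hep (0 lower and 0 higher by limma for each mark). In BEC, 2 were higher than in Hep for H3K4me3 (Cyp1b1 and Cyp2s1). For H3K27ac, 2 were higher (Cyp2s1 and Cyp4b1) and 1 lower (Cyp2r1). Of all promoters, 8.98% were higher in BEC for H3K4me3, and for H3K27ac 6.23% were higher and 14.7% lower. Cyp2s1, an epithelial enzyme, had H3K4me3 over 0 bp in Hep and early, 61 and 466 bp in intermediate, 0, 326 and 527 bp in late and 315 and 571 bp in BEC. Its H3K27ac was 127 and 0 bp in intermediate, 484 and 591 bp in BEC, and 0 bp in all Hep, early and late libraries. BEC minus late for H3K27ac was 2.67 ± 0.36 (limma adjusted p = 0.0145), the one P450 call between BEC and late cells, and it was lost without Hep 1, Hep 2, late 3, BEC 1 or BEC 2. There were 3 calls with resized peaks or with 10 bp added, and 2 with placement by H3K4me3. Of all promoters 0.529% were higher and 0.146% lower in that comparison. For H3K4me3, BEC and late cells differed at no P450 promoter by limma, with 2 at an unadjusted p under 0.05, 1 call at equal numbers of peaks and 2 with quantile normalization, and 0.594% of all promoters were higher and 0.0533% lower.

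BEC had less H3K4me3 than Hep at 24 P450 promoters, the 23 of the late comparison and Cyp4f14, and more at Cyp1b1, Cyp2j9, Cyp2s1 and Cyp4f16. Of all promoters 3.2% were lower and 8.98% higher, and the median was -2.51 over the P450 promoters and 0.12 over all. The late and BEC comparisons share their Hep libraries. All calls together numbered 16 with peaks resized to 500 bp. The lower calls numbered 17 without Hep 1 and 15 without Hep 2, and the higher ones 0 without Hep 1 or BEC 2 and 2 without Hep 2, early 1 or early 2. H3K27ac was lower in BEC at 20 and higher at Cyp2d34, Cyp2s1, Cyp2t4 and Cyp4b1, with 14.7% of all promoters lower and 6.23% higher. Its lower calls numbered 10 without Hep 1, 7 without Hep 2 and 10 without BEC 2, and its higher calls 2 in each of these and without BEC 1. Both directions together gave 15 with peaks resized to 500 bp. Cyp1b1, which oxidises oestradiol and polycyclic hydrocarbons, had H3K4me3 over 0 bp in Hep and early, 148 and 122 bp in intermediate, 0, 0 and 197 bp in late and 363 and 190 bp in BEC (BEC minus Hep 1.87 ± 0.56, limma adjusted p = 0.0384). That call was lost without either Hep, either early or either BEC library, without the short-peak libraries, with peaks resized to 500 bp, at equal numbers of peaks and with quantile normalization.

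H3K27me3 lists were short, and the mark was found at 0 to 5 of the 75 P450 promoters in a library. The mean share was 4.00% in Hep, 4.67% in early, 3.33% in intermediate, 3.56% in late and 0.667% in BEC, beside 11.7%, 8.44%, 9.74%, 9.64% and 3.25% of all promoters. It was found at 9 genes in any library: Cyp1b1, Cyp2ab1, Cyp2b9, Cyp2j12, Cyp2j13, Cyp2s1, Cyp3a16, Cyp3a44 and Cyp4f39. None of the 23 genes lower in H3K4me3 in late cells had an H3K27me3 peak in any of the 11 libraries. Cyp1b1 had it over 0 and 712 bp in Hep, 274 and 0 bp in early, 448 and 124 bp in intermediate, 87, 760 and 862 bp in late and 0 and 182 bp in BEC. Cyp2s1 had it over 0 and 141 bp in Hep, 317 and 433 bp in early, 0 and 129 bp in intermediate, 0, 200 and 0 bp in late and 0 bp in BEC. The absence of a peak says only that none was called.

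H3K4me1 lists differed widely in size. The mark was at 36 and 44 P450 promoters in Hep, 9 and 35 in early, 20 and 19 in intermediate, 21, 32 and 14 in late and 27 and 12 in BEC. The early library with 9 had 12785 peaks on the chromosomes used and the one with 35 had 48939. The mean share was 53.3% in Hep, 29.3% in early, 26.0% in intermediate, 29.8% in late and 26.0% in BEC, beside 51.1%, 17.5%, 22.9%, 26.9% and 21.5% of all promoters. Among the 23 genes lower in H3K4me3, H3K4me1 was present at 14 and 21 in Hep, 3 and 13 in early, 5 and 7 in intermediate, 5, 12 and 5 in late and 8 and 3 in BEC.

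The start of 3 genes needed care, because the RefSeq promoter table puts it more than 2500 bp from the 5′ end of the gene model: 9685 bp for Cyp1a1, 10654 bp for Cyp2j6 and 3991 bp for Cyp3a13. At the listed start Cyp3a13 had H3K4me3 over 747 and 1306 bp in Hep, 854 and 1572 bp in early, 121 and 448 bp in intermediate, 0, 123 and 0 bp in late and 206 and 0 bp in BEC. There it was lower in late cells than in Hep (-3.06, limma adjusted p = 0.00581) and than in early cells (-3.27, adjusted p = 0.00819), whereas the 5′ end of the model had no peak. Its H3K27ac there was found in all 11 libraries, at 874 and 559 bp in Hep, 389 and 457 bp in early, 255 and 315 bp in intermediate, 139, 156 and 206 bp in late and 270 and 347 bp in BEC. Late minus Hep was -1.59 (adjusted p = 0.00947), without overlap of the groups. Cyp2j6 had H3K4me3 at its listed start in every library (588 and 678 bp in Hep, 341, 733 and 549 bp in late, 1305 and 795 bp in BEC) and was not called. Its H3K27ac at the listed start was also in all 11 libraries, at 217 to 666 bp, and was not called between late cells and Hep (adjusted p = 0.373).

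Cyp1a1, the classical target of the aryl hydrocarbon receptor, had no H3K4me3 peak at the 5′ end of its model, which lies 4273 bp from the start of Cyp1a2, so that the windows overlap. H3K27ac in that window covered 642 and 673 bp in Hep, 423 and 772 bp in early, 298 and 122 bp in intermediate and 0 bp in late and BEC. At the listed start H3K4me3 covered 203 and 133 bp in Hep, 0 bp in early, 63 and 304 bp in intermediate, 0, 123 and 252 bp in late and 0 bp in BEC, and H3K27ac covered 161 and 499 bp in Hep, 394 and 0 bp in early and 0 bp in the rest. H3K27ac was lower in late cells than in Hep at both positions, by -2.92 ± 0.34 at the model's end (limma adjusted p = 0.00195) and by -1.98 at the listed start (adjusted p = 0.0409). The call at the model's end was lost without either Hep library. The late minus early and BEC minus Hep calls at the model's end were both lost at the listed start. There the differences were -1.15 (limma adjusted p = 0.319) and -1.98 (adjusted p = 0.057).

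Genes less than 200000 bp from their neighbours, 3 or more together, formed 8 tandem arrays. They held 57 of the 75 genes and 20 of the 29 without an H3K4me3 peak at the 5′ ends used. Of the 18 genes outside them 9 had none. Cyp2j6 inside the arrays, and Cyp1a1 and Cyp3a13 outside, had H3K4me3 at their listed starts. Arrays were built from genes of the naming rule only. The promoters nearest to Cyp3a16 and Cyp4a29, outside the arrays, were those of Cyp3a41b and Cyp4a12a, which the rule leaves out. These counts therefore do not set tandem copies against single genes. The longest ran from Cyp2c55 to Cyp2c70 (mm10 chromosome 19, 39006940 to 40187286, 1180 kb, 14 genes), where 5 genes had no H3K4me3 and 8 no H3K27ac peak in any library. It held 13 to 16 H3K4me3 peaks in Hep libraries, 3 to 10 in early, 0 to 2 in intermediate, 0 to 2 in late and 0 in BEC. H3K4me3 covered 0.383% ± 0.00707 of that array in Hep, 0.184% ± 0.165 in early, 0.0178% ± 0.0252 in intermediate, 0.0149% ± 0.0220 in late and 0% in BEC. The Cyp2d array (chromosome 15, 82370527 to 82794452, 424 kb, 8 genes) was covered more densely, at 2.43% ± 0.0190 in Hep, 1.58% ± 0.383 in early, 0.406% ± 0.183 in intermediate, 0.298% ± 0.257 in late and 0.319% ± 0.0774 in BEC.

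The array from Cyp4a14 to Cyp4b1 (chromosome 4, 115486200 to 115647721, 162 kb, 5 genes) held 0 or 1 H3K4me3 peak in early libraries, against 5 or 6 in Hep. It was covered to 0.102% ± 0.145 in early and 1.47% ± 0.316 in Hep, while H3K27ac in early covered 0.513% ± 0.0429 of it against 1.11% ± 0.438 in Hep. The array from Cyp3a44 to Cyp3a59 on chromosome 5 (4 genes) and that from Cyp2b23 to Cyp2t4 on chromosome 7 (8 genes) had no H3K4me3 peak in BEC, against 0.833% ± 0.250 and 0.682% ± 0.1197 of their length in Hep. In contrast, the array from Cyp2j13 to Cyp2j5 on chromosome 4 was covered to 0.304% ± 0.0389 in BEC and 0.212% ± 0.00398 in Hep. Of its 7 genes, 5 had no H3K4me3 at the 5′ ends used, and 4 counting the listed start of Cyp2j6. That from Cyp4f39 to Cyp4f15 on chromosome 17 was covered to 0.813% ± 0.194 in BEC and 1.15% ± 0.0172 in Hep. That from Cyp2s1 to Cyp2a4 on chromosome 7 (5 genes) was covered to 0.128% ± 0.0722 in late, 0.168% ± 0.0217 in BEC and 0.207% ± 0.0248 in Hep.

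**Figure D5:**
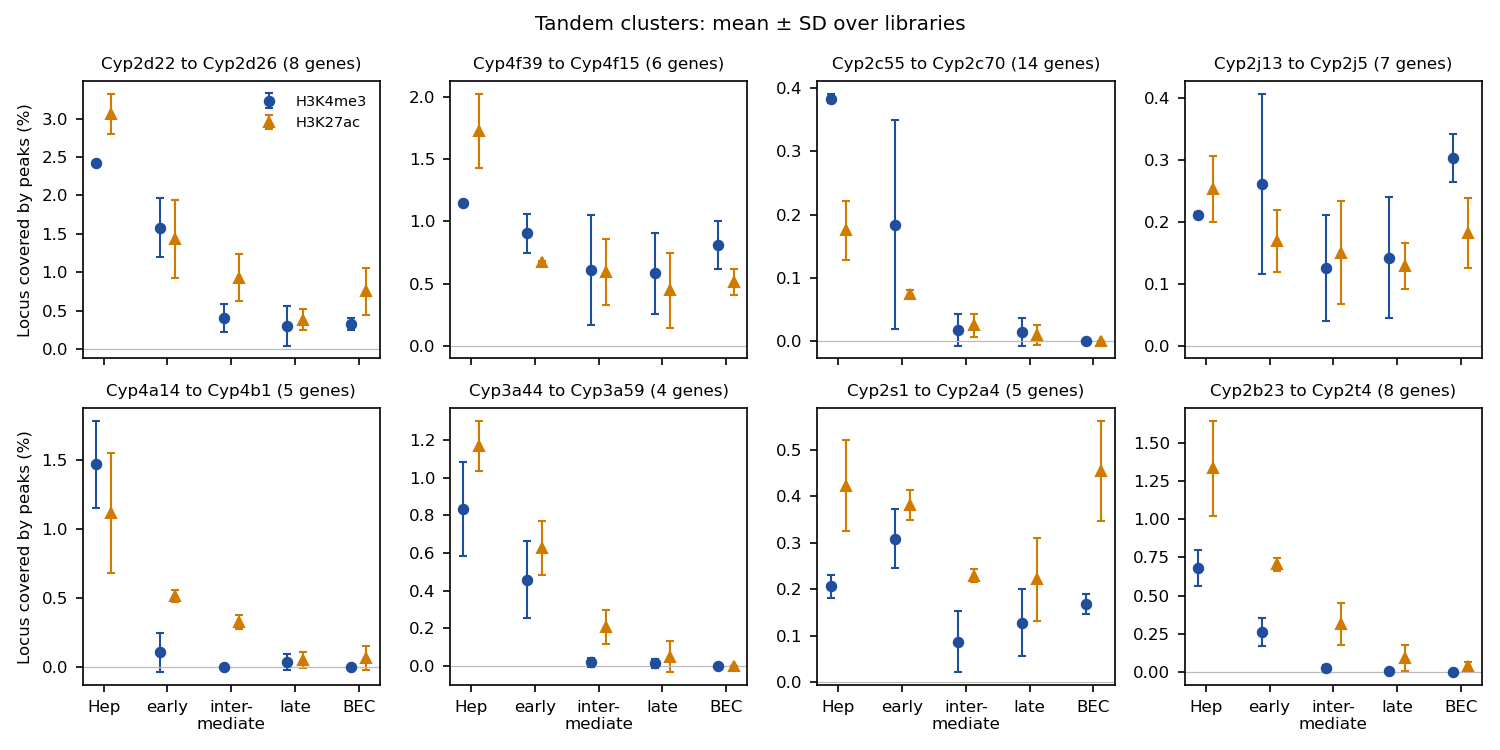
Percent of each of the 8 tandem arrays covered by H3K4me3 (circles) and H3K27ac (triangles) peaks, by stage, as mean ± SD over libraries, on a scale of its own per array. H3K4me3 of the Cyp2c, Cyp3a and Cyp4a arrays and of Cyp2b23 to Cyp2t4 lies at or near 0 in late and BEC cells. That of the Cyp2j, Cyp4f and Cyp2s1 to Cyp2a4 arrays does not.

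At the 5′ ends used, 29 of the 75 genes had no H3K4me3 peak in any library, 22 had neither H3K4me3 nor H3K27ac, and 12 had no peak of any mark. Counting the listed starts as well, 20 had neither and 10 had no peak of any mark: Cyp2b13, Cyp2b19, Cyp2b23, Cyp2c39, Cyp2c66, Cyp2j8, Cyp2j11, Cyp2w1, Cyp4a29 and Cyp4f18. Of the 29, 8 had H3K4me3 elsewhere in the gene or its flanks and 21 had none. Gene models can overlap: that of Cyp2c39, among the 8, holds the 5′ end of Cyp2c38, where H3K4me3 was found in 2 libraries. Copies can share reads, and the sources used here do not say how such reads were assigned. Of 63 genes with a sequence, 11 had a promoter at least 90% identical to that of another P450 gene, such as Cyp2b13 with Cyp2b9 (99.3%), Cyp2a4 with Cyp2a5 (97.7%) and Cyp3a25 with Cyp3a59 (95.7%). H3K4me3 or H3K27ac was found at 6 of these 11 and at 36 of the other 52. Cyp2b9 and Cyp2b13 gave an example, with H3K4me3 at Cyp2b9 over 0 and 487 bp in early, against 409 and 0 bp in Hep, and no peak of any mark at Cyp2b13.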

How the data were processed

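Histone marks were read as 1 deposited peak list for each of 44 libraries, 4 marks in 11 libraries each. Per the submitters' processing notes the authors used Bowtie2, Picard, deepTools and MACS2 on mm10, with no version named. The lists are deposited peak positions, with a deposited score per peak whose definition is not given and whose lowest value lay just above 2; scores were not tested. Peak numbers give no read depth, so no counting error could be attached to a value. Of 1341191 peaks, 1210 lay on sequences other than the 19 autosomes and the sex chromosomes and were not used.

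Gene models came from RefSeq. Each protein-coding gene was placed at its 5′ end by strand, where the promoter table gave one. The 12 P450 genes with no row there were placed at the end with more of 1 mark over all libraries, 8 by H3K4me3, 3 by H3K27ac and 1 by H3K4me1. That rule gave the same end as the strand for 43 of 50 P450 genes and 88.1% of 12519 genes in which the ends differed. Bases within 2500 bp inside peaks were counted in Python 3.11.15 (numpy 2.4.6, pandas 2.3.3), and log2(bp + 100) was fitted with limma 3.58.1 in R 4.3.3, 1 fit per mark over 5 stages, with Benjamini-Hochberg adjustment over all promoters in a comparison. No count model was used. On simulated data for late minus early, 36% of promoters changed by 2 and 75% of those changed by 3 (log2) were called for H3K4me3, and 37% and 68% for H3K27ac. Of the simulated calls, 6.72% and 4.55% were false. The simulation drew independent normal noise around 1 mean per promoter. It held no stages at 0 bp in every library and no difference in peak length between libraries. These rates therefore do not measure the power or the error of the calls given above.

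H3K4me1 and H3K27me3 were described only. Promoter identity and motifs used Biopython 1.88. Named genes were those called, up to 10 per direction in a comparison by size, and a fixed set of well-known members. The gene family, lists and tests were chosen with earlier results of these data known, although the naming rule itself uses no measured value. Deviations from the stage mean correlated at -0.02 to 0.22 for H3K4me3 and -0.06 to 0.10 for H3K27ac between same-numbered libraries of different stages. The highest was between intermediate 1 and late 1 in H3K4me3, both lists of short peaks. In a stage of 2 libraries the deviations mirror each other, so these correlations cannot decide whether the numbers pair the libraries. The labels do not say so either, and the main fit did not use the numbers.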

Additional observations from a re-analysis of the deposited data

How the results depend on the processing

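Of 128 called P450 differences, none changed direction under the 21 alternative settings in which it could be tested. Many set a marked stage against a stage at 0 bp, below which a covered length cannot fall. Every setting also used the same peak lists, so the direction was largely fixed and is not support. The call held in all 21 settings for 19 of the 128. For 40 it could not be tested in at least 1 setting, mostly because a promoter marked in Hep alone drops out when a Hep library is left out. Leaving out 1 library in turn moved the H3K4me3 calls to 0 to 7 for early minus Hep (6 in full), 0 to 5 for intermediate minus early (1), 0 for late minus intermediate (0), 0 to 13 for late minus early (10), 9 to 25 for late minus Hep (24), 0 to 1 for BEC minus late (0) and 17 to 29 for BEC minus Hep (28). The H3K27ac calls moved to 0 to 10 for early minus Hep (6), 0 to 4 for intermediate minus early (0), 0 for late minus intermediate (0), 1 to 10 for late minus early (9), 1 to 22 for late minus Hep (19), 0 to 1 for BEC minus late (1) and 9 to 25 for BEC minus Hep (24).

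With peaks resized to 500 bp, the H3K4me3 calls were 2 for intermediate minus early, 1 for late minus intermediate, 5 for late minus early and 16 for BEC minus Hep, and the H3K27ac calls 2, 2, 4, 12, 3 and 15 for early minus Hep, intermediate minus early, late minus intermediate, late minus Hep, BEC minus late and BEC minus Hep. With 10 bp added in place of 100, the H3K4me3 calls were 3, 1 and 6 for intermediate minus early, late minus intermediate and late minus early, and the H3K27ac calls 3, 2, 4 and 3 for early minus Hep, intermediate minus early, late minus intermediate and BEC minus late. With equal numbers of peaks per library, the calls were 8 for H3K4me3 and 2 for H3K27ac in intermediate minus early, and 1 for H3K4me3 in BEC minus late. Quantile normalization gave 10 and 2 H3K4me3 calls for intermediate minus early and BEC minus late, and 2, 4 and 12 H3K27ac calls for early minus Hep, intermediate minus early and late minus Hep. Without the short-peak libraries, intermediate minus early had 6 H3K4me3 calls and 1 H3K27ac call. Placing every promoter by H3K4me3 gave 1 H3K27ac call for intermediate minus early and 2 for BEC minus late, and a window of 1000 bp gave 3 for late minus early. The cause of these moves was not tested.

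With the replicate number as a block, the H3K4me3 calls were 9 for intermediate minus early and 2 for BEC minus late, and the H3K27ac calls 0 for late minus early, 12 for late minus Hep and 0 for BEC minus late; the numbers were not shown to pair the libraries, and no other count moved by over 1.5 times.

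The late minus Hep share of P450 promoters with a peak was -28.7 percentage points for H3K4me3 (-32.7 to -26.7 with 1 library left out) and -22.7 for H3K27ac (-25.3 to -20.0, and -27.3 requiring 200 bp covered). For H3K4me1 it was -23.6 (-30.0 to -18.0), with -6.89 at equal numbers of peaks and -34.7 requiring 200 bp. For H3K27me3 it was -0.444, with a range of -3.11 to 2.22, the last, without Hep 2, being reversed. Small numbers of libraries, 2 in most stages, and unknown depth limit all of these values. The placement at the listed start was added after the data were seen, and it moved the H3K4me3 calls for late minus Hep to 25.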

Other observations

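The 24 other Cyp genes, chiefly of sterol, bile acid, steroid and retinoid metabolism, were outside the naming rule. For H3K4me3, 13 were tested and 3 were lower in late cells than in Hep (Cyp7a1 and Cyp8b1, enzymes of bile acid synthesis, and Cyp17a1, of steroid synthesis), while Cyp27b1, the vitamin D 1-alpha-hydroxylase, was higher. Over all promoters tested 3.08% were lower and 3.21% higher. Their median late minus Hep difference was -0.75, against -0.66 over all promoters tested. For H3K27ac, Cyp17a1, Cyp26a1 and Cyp51 were lower and none was higher among 13 tested by limma. Over all promoters 19.2% were lower in that mark and 4.31% higher.

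Of 18 partners and regulators of P450 enzymes, 1 of 15 tested, Nr1i3, had less H3K4me3 in late cells than in Hep, beside 3.08% of all promoters. Por, the reductase that supplies these enzymes with electrons, had no peak at the 5′ end of its gene model. At its listed start, 19105 bp away, H3K4me3 covered 661.7 ± 436 bp in late cells (SD, n = 3) and 1557.5 ± 149 bp in Hep (SD, n = 2). Nr1i2, the gene for PXR, kept H3K4me3 over 607.3 ± 370 bp in late cells (n = 3), against 1205.5 ± 142 bp in Hep (n = 2).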
